A study of Rattus norvegicus with 6 samples.

Results

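The genes described here encode the machinery that brings new secretory proteins into the endoplasmic reticulum (ER): the signal recognition particle (SRP) and its receptor, the Sec61 channel with its partners, the translocon-associated protein (TRAP) complex, signal peptidase and the oligosaccharyltransferase (OST). They were chosen by symbol from a list of 34 genes, and the 30 that were found and averaged 5 normalized counts or more across the 6 lines are described, out of 32900 features in the table and 15579 that reached this mean. Srp72, Srprb, Stt3a and Tmem258 were not analysed here. RNA-seq compared 3 control and 3 PWS INS-1 lines of rat insulinoma β-cells, with 1 library per line, to ask what loss of the imprinted Prader-Willi syndrome (PWS) domain does to the transcriptome of a β-cell. The control lines 5-9, 2 and 16 carry a deletion of the domain on the silent maternal allele, and the PWS lines 3, 19-1 and 19-4 carry it on both alleles. All 6 lines are clones of INS-1(832/13)::mCherry cells, which also hold a human insulin transgene with neomycin resistance and a mouse Ins2 C-peptide-mCherry transgene, and all were grown in 7.5 mM glucose. Control lines 2 and 16 and the PWS lines were derived from line 5-9, lines 19-1 and 19-4 are subclones of 1 line, and line 3 has a larger deletion, so the PWS group stands for 2 clones. The p-values therefore measure the spread between clonal lines, and a clone's own history cannot be told apart from its genotype.

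A secretory protein such as preproinsulin carries a signal sequence at its start. SRP binds this sequence as it leaves the ribosome and hands the ribosome to the SRP receptor, and the chain is threaded through the Sec61 channel, with TRAP assisting certain substrates, preproinsulin among them. Signal peptidase cuts off the signal sequence, which turns preproinsulin into proinsulin, and OST transfers a preassembled sugar chain to asparagine residues of the growing protein. In secretory cells many of these genes are known to be raised together with ER chaperones by the transcription factors XBP1 and ATF6 when the folding load of the ER increases.

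The libraries held between 26016478 and 36084261 counted reads. Of 16 β-cell markers listed, 15 were analysed and all 15 were expressed, with summed levels of 658475 to 727527 normalized counts in control and 380135 to 634638 in PWS lines. Most of this sum was Ins1, Iapp and Chga (Ins1 256090.1 to 282807 and 133488 to 247273), and of the 15 genes 12 were lower on average, with log2 fold changes from -0.99 to 0.14 and a median of -0.12, and 3 were lower at an unadjusted p under 0.05 by limma (5.35% of all genes). Some of them also differed among the control lines: in lines 5-9, 2 and 16, Ins2 had 5197, 2309.5 and 7689 and Pcsk2 28335, 15286 and 33604 normalized counts, lowest in line 2 and highest in line 16. Others had the opposite order, among them Chga (91929, 103985 and 83350), Pcsk1 (29310, 31202 and 22142) and Kcnj11 (5691, 6165 and 5225). Of the markers of other cell types, Sst, Irx2, Prss1, Amy2a3, Cftr, Dcn, Lum, Cdh5 and Ptprc, which mark δ-, α-, acinar, ductal, stromal, endothelial and immune cells, were listed at 0 in every line. The summed α-cell markers were 1.84 to 23.7 in control and 17.9 to 110 in PWS lines, the highest through Gcg in line 19-4 (100, against 0 to 19.0 in control lines), and the δ-cell markers were 0.918 to 2.85 and 1.2 to 13.6. The acinar sum, nearly all Ctrb1, was 12.9 to 35.1 and 23.5 to 32.7, the immune sum, all Cd68, was 28.5 to 34 and 27.6 to 30, the endothelial sum was 2.85 to 5.51 and 2.39 to 9.09, and the ductal, stromal and PP-cell sums stayed at or below 3.64. Whether the lower summed β-cell markers, their spread among control lines or the higher α- and δ-cell sums in PWS lines bear on the values below was not tested. Snurf, a gene of the deleted domain, had 3992, 3159.5 and 3911 normalized counts in lines 5-9, 2 and 16 (control) and 2.04, 0 and 3.64 in lines 3, 19-1 and 19-4 (PWS), as the labels state. In RNA from a whole culture, less RNA per cell and fewer cells expressing a gene cannot be told apart.

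Promoters of the genes were searched for the letters of elements that XBP1 and ATF6 are known to bind, and 4 of them are shown because they give the range from no match to a full element. Of the 30 genes, 25 had an entry in the RefSeq promoter table of build GRCr8, and Tusc3, Sec61a1, Sec61a2, Tram1 and Krtcap2 had none. Each window ran from 250 bases before the transcript start to 50 after it, and both strands were read. The stretches below end before the start, are written 5′ to 3′ in the direction of the gene, and mark the match in capitals. The first is Sec61b, the gene with the largest difference between the groups, followed by the TRAP genes Ssr1 and Ssr3 and, for contrast, the ER chaperone Hspa5 (BiP).
Sec61b, chr5:66568934-66569183, plus strand, no match: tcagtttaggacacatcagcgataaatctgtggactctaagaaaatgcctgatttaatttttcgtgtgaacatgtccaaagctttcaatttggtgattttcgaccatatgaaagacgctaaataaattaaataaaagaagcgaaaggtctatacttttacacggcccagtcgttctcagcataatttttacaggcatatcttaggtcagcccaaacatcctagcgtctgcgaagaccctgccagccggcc
Ssr1, chr17:27039133-27039252, plus strand, GCCACGT at 130 and at 83 bases before the start: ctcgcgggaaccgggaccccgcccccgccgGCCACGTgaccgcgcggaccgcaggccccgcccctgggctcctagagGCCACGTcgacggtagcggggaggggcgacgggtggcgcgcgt
Ssr3, chr2:151935293-151935412, minus strand, GCCACGT at 206 bases before the start: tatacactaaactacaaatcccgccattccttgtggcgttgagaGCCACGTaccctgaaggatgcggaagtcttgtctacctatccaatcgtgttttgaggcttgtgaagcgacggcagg
Hspa5, chr3:38452896-38453015, plus strand, the ER stress response element at 43 bases before the start: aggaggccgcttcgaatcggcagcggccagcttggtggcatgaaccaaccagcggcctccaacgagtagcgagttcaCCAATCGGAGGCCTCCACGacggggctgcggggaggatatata

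The ER stress response element, searched as CCAAT and CCACG with any 9 bases between them, was found in 0.0657% of all 33469 windows, in 0 of the 25 genes with an entry and in 4 of 9 chaperone genes with one. Its second form, ATTGG and CCACG with any 1 base between them, was found in 0.0508% of windows, in 0 of the 25 and in 2 of the 9. The shorter XBP1-type core GCCACGT was found in 2.3% of windows and in 3 of the 25 genes, Ssr1, Ssr3 and Srp19, in 2 of the 9 chaperone genes, and in 2 of 27 and 2 of 26 genes of the targeting and insertion and the N-glycan lists. TGACGTGG, found in 0.595% of windows, was present in Srp19 alone of the 25, where it overlapped the GCCACGT match on the other strand. It was in 1 of the 9 chaperone genes, Hyou1, and in 0 of 27 and 0 of 26 genes of the other lists. A match in these windows is a description of the letters and not of a bound site, and elements outside them were not examined. The 3 genes with GCCACGT had log2 fold changes of -0.11 (Ssr1), -0.09 (Ssr3) and -0.03 (Srp19).

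In the PWS lines 28 of the 30 genes had a lower mean than in the control lines, beside 50.7% of all 15579 tested genes. The differences were small. The median log2 fold change of the 30 genes was -0.13, or -8.76%, beside -0.0028 for all tested genes, and single genes ranged from -0.39 (Sec61b) to 0.15 (Sec61a2). By limma's test with Benjamini-Hochberg adjustment over all tested genes, 0 of the 30 passed an adjusted p of 0.05, which 0.257% of all genes did, and the lowest adjusted p was 0.325. Before adjustment, 7 had a p under 0.05, all of them lower in the PWS lines, where 5.35% of all genes were. edgeR and DESeq2 on the recovered reads also put 0 of the 30 past the adjusted threshold, which 0.205% and 1.46% of all genes did. Lower at an unadjusted p under 0.05 were 6 by edgeR (5.24% of all genes) and 7 by DESeq2 (5.01%). In 8 genes every PWS line was below every control line, which was so for 9.01% of all genes, and in 0 was every PWS line above every control line, which was so for 8.43% of all genes.

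**Figure D1:**
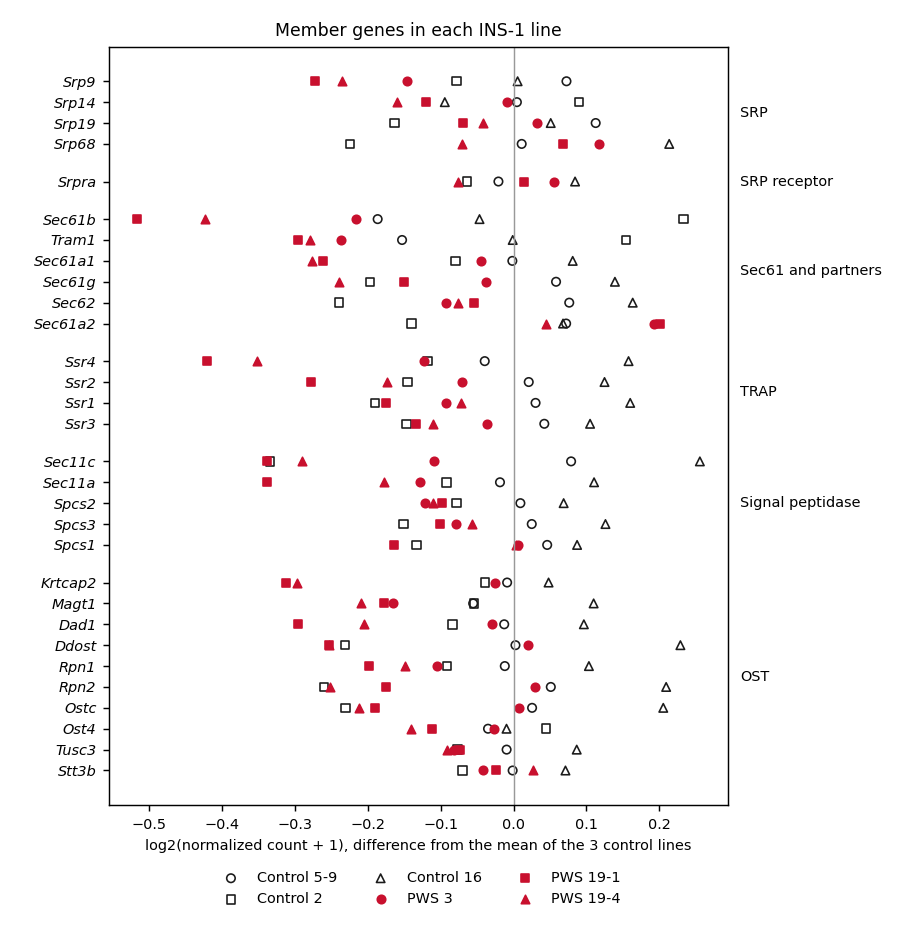
Each of the 30 genes in each of the 6 lines, as the difference of log2(normalized count + 1) from the mean of the 3 control lines, with genes grouped by complex. Open symbols are control lines and red symbols PWS lines; control line 16 (open triangles) was the highest line in 23 genes, and control line 2 (open squares) lay among or below the PWS lines in 20.

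The 6 lines did not divide cleanly into their groups. Set against the control mean, the median over the 30 genes was 0.01 in control line 5-9, -0.10 in control line 2 and 0.10 in control line 16 on the log2 scale, and -0.04, -0.17 and -0.17 in PWS lines 3, 19-1 and 19-4. The median of control line 2 was thus below that of PWS line 3, and the control medians had an SD of 0.10, close in size to the difference between the groups. Control line 2 was below both other control lines in 25 genes but was the highest of all 6 lines in 4, Sec61b, Tram1, Srp14 and Ost4. PWS line 3 was the highest PWS line in 23 genes and lay below the lowest control line in 9, compared with 17 for line 19-1 and 18 for line 19-4.

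The counts of genes depended on which line was left out. Without control line 2, every PWS line was below every control line in 23 of the 30 genes, beside 14.6% of all genes, and 18 were lower at an unadjusted p under 0.05, beside 4.7%. Without PWS line 3 these counts of lower genes were 15 (background 15.7%) and 8 (5.56%). Every PWS line was below every control line in 9 genes without control line 5-9, 9 without control line 16, 9 without PWS line 19-1 and 8 without PWS line 19-4. Of all genes, 25.8%, 29.0%, 25.4% and 26.4% were then apart in either direction. The number lower at an unadjusted p under 0.05 was 4 without control line 5-9 (background of lower genes 4.71%), 3 without control line 16 (4.96%), 2 without PWS line 19-1 (4.08%) and 4 without PWS line 19-4 (3.46%). It was 3 (background 3.63%) when the subclones 19-1 and 19-4 were averaged into 1 sample. The median log2 fold change stayed below 0 in each of these fits, at -0.20 without control line 2 and -0.07 without control line 16. The adjusted threshold was not reached by any of the 30 genes in any of them. The log2 fold change of 20 genes moved by over 1.5 times when at least 1 of the lines was left out, most often control line 2 (16 genes) or 16 (17 genes). The other 10, which did not, were Sec61b, Tram1, Sec61a1, Ssr4, Srp9, Sec11a, Spcs2, Magt1, Krtcap2 and Ost4.

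**Figure D2:**
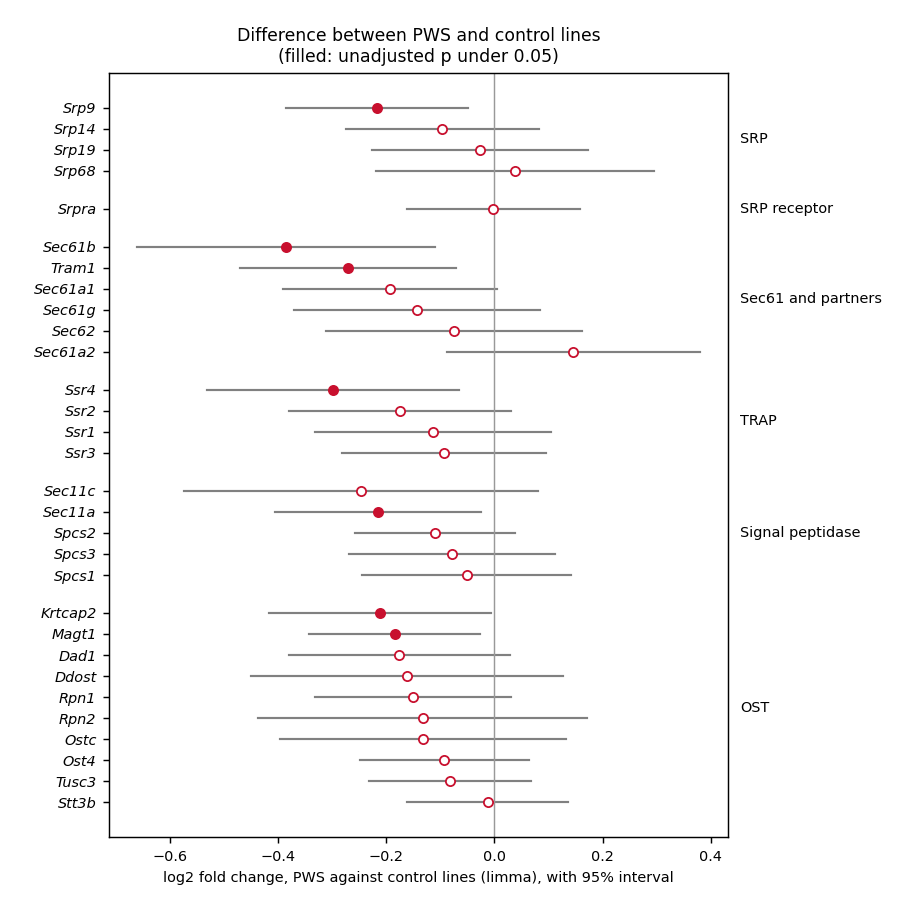
The log2 fold change of each gene in PWS against control lines by limma, with its 95% interval (horizontal lines), by complex. Filled points mark the 7 genes with an unadjusted p under 0.05, whose intervals lie below 0; the other 23 intervals include 0.

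SRP, which finds the signal sequence, was represented by 4 subunits. Srp9, which with Srp14 forms the part of the particle that slows translation, had 1599, 1440.2 and 1526 normalized counts in lines 5-9, 2 and 16 (control) and 1374, 1259 and 1292 in lines 3, 19-1 and 19-4 (PWS). All 3 PWS lines were below all control lines, with a log2 fold change of -0.22 (SE 0.07, n = 3 lines per group, unadjusted p = 0.0174, adjusted p = 0.343 by limma). Its partner Srp14 did not separate the groups, with 1503 to 1707 in control and 1436 to 1594 in PWS lines and a log2 fold change of -0.10 (SE 0.08). Srp19, which helps assemble the particle on its RNA, and Srp68, a large subunit, had log2 fold changes of -0.03 (SE 0.09) and 0.04 (SE 0.11), and in both the control line 2 was the lowest of all lines. For Srp68 only 44.8% of the reads were kept by nonunique none counting, which drops reads that align to several places or overlap several genes, and 16.3% of all tested genes kept under 50%, so its value is uncertain. Srpra, the GTPase subunit of the SRP receptor, had 5333, 5177 and 5736 normalized counts in the control lines and 5620.0, 5465 and 5131 in the PWS lines. The groups overlapped, and the 95% interval of the difference ran from -10.7% to 11.5%.

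The Sec61 channel held both ends of the distribution. Sec61b (ENSRNOG00000006345), a small subunit of the channel, had 4633, 6198 and 5105 normalized counts in lines 5-9, 2 and 16 (control) and 4539, 3687 and 3931 in lines 3, 19-1 and 19-4 (PWS). The groups did not overlap, but control line 5-9 and PWS line 3 were close, and control line 2 stood above the rest. The log2 fold change was -0.39 (SE 0.12, unadjusted p = 0.0118, adjusted p = 0.325), or -23.4% with a 95% interval from -36.7% to -7.37%. Without control line 2 it was -0.27, and the lowest of the 30 genes was then Sec11c, at -0.41. Tram1 (ENSRNOG00000007892), a membrane protein beside the channel, had the same order of lines: 11790.3, 14588 and 13098 in the control lines and 11125, 10675 and 10803 in the PWS lines. Its log2 fold change was -0.27 (SE 0.09, unadjusted p = 0.0137, adjusted p = 0.333), and -0.19 without control line 2.

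The pore subunit Sec61a1 (ENSRNOG00000013743) had 14484, 13724 and 15339.6 normalized counts in the control lines and 14059, 12101 and 11975 in the PWS lines. Line 3 lay within the control range and both subclones of line 19 below it, with a log2 fold change of -0.19 (SE 0.09, unadjusted p = 0.0537, adjusted p = 0.449). Sec61a2, a second gene for the pore, had 424, 366 and 423 in the control lines and 461, 464 and 416 in the PWS lines, a log2 fold change of 0.15 (SE 0.10, adjusted p = 0.633). Its groups overlapped. It had the highest fold change of the 30, but only 59.7% of its reads were kept by nonunique none counting, under which its log2 fold change was 0.04 and that of Srp68, at 0.06, was the highest. Sec61g, the other small subunit, and Sec62, a partner for proteins that enter the ER after translation, had log2 fold changes of -0.14 (SE 0.10) and -0.07 (SE 0.10), with control line 2 inside or below the PWS range in each.

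TRAP was lower on average in all 4 subunits, with a median log2 fold change of -0.14. Ssr4 (ENSRNOG00000053172), its δ subunit, had 4026, 3812 and 4616 normalized counts in lines 5-9, 2 and 16 (control) and 3799, 3092 and 3241 in lines 3, 19-1 and 19-4 (PWS). The groups were separated by the small gap between control line 2 and PWS line 3, and the log2 fold change was -0.30 (SE 0.10, unadjusted p = 0.0183, adjusted p = 0.348), or -18.7%. In the other 3 subunits the groups overlapped: the log2 fold changes were -0.17 (SE 0.09) for Ssr2, -0.11 (SE 0.10) for Ssr1 and -0.09 (SE 0.08) for Ssr3. In Ssr1 and Ssr3 control line 2 was the lowest of the 6 lines, at 10020.1 and 10557 normalized counts.

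Signal peptidase was lower on average in all 5 subunits, with a median log2 fold change of -0.11. Its catalytic subunits are Sec11a and Sec11c, of which each complex holds 1. Sec11a (ENSRNOG00000011029) had 3730, 3546 and 4079.6 normalized counts in the control lines and 3457, 2988 and 3339 in the PWS lines. The groups did not overlap, and the log2 fold change was -0.22 (SE 0.08, unadjusted p = 0.0308, adjusted p = 0.399). Sec11c had 6838, 5134 and 7729 in the control lines and 5999.8, 5120.2 and 5295 in the PWS lines. Its log2 fold change of -0.25 was larger in size than that of Sec11a, but control line 2 lay at the level of line 19-1, and with the widest control spread of the 30 genes (CV 20.1%) the SE was 0.14 and the unadjusted p 0.122. Without control line 2 the fold change of Sec11c was -0.41 (unadjusted p = 0.00267), and without control line 16 it was -0.12. Of the accessory subunits, Spcs2 had 6817, 6416 and 7103 in the control lines and 6227, 6327 and 6276 in the PWS lines, apart but with a log2 fold change of -0.11 (SE 0.06, unadjusted p = 0.126), and Spcs3 and Spcs1 overlapped at -0.08 (SE 0.08) and -0.05 (SE 0.08).

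OST was lower on average in all 10 subunits analysed, with a median log2 fold change of -0.14. Magt1 (ENSRNOG00000051408), an oxidoreductase subunit of the OST form built on Stt3b, had 4274, 4278 and 4793 normalized counts in lines 5-9, 2 and 16 (control) and 3960.1, 3927 and 3840.4 in lines 3, 19-1 and 19-4 (PWS). All PWS lines were below all control lines, with a log2 fold change of -0.18 (SE 0.07, unadjusted p = 0.0272, adjusted p = 0.385). Tusc3, the alternative to Magt1 in the same place, was nearly level among the PWS lines, at 4016 to 4066, against 4054 to 4542 in control lines, and overlapped with them (log2 fold change -0.08, SE 0.07). Stt3b itself, the catalytic subunit, had a log2 fold change of -0.01 (SE 0.06), with a 95% interval of the difference from -10.6% to 9.89%.

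Krtcap2, a subunit of the other OST form, had 2001, 1959.8 and 2082 normalized counts in the control lines and 1978, 1621 and 1639 in the PWS lines. Line 3 lay within the control range, and both subclones of line 19 were below it (log2 fold change -0.21, SE 0.09, unadjusted p = 0.0449, adjusted p = 0.432). Ostc, a subunit of the same form, had a log2 fold change of -0.13 (SE 0.12) with control line 2 the lowest of all lines. Of the subunits that both forms share, Rpn1 had 23727, 22458 and 25703 in the control lines and 22237, 20848 and 21579 in the PWS lines. Its groups were just apart, with a log2 fold change of -0.15 (SE 0.08, unadjusted p = 0.0905). Dad1 (-0.18, SE 0.09), Ddost (-0.16, SE 0.13), Rpn2 (-0.13, SE 0.13) and Ost4 (-0.09, SE 0.07) overlapped between the groups on these log2 fold changes. Without control line 2 the values of Ddost and Rpn2 were -0.28 and -0.26, and without control line 16 they were -0.05 and -0.03.

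Across the complexes the median log2 fold change was -0.06 for SRP (4 genes), -0.17 for the Sec61 channel and its partners (6), -0.14 for TRAP (4), -0.11 for signal peptidase (5) and -0.14 for OST (10). The difference between complexes was not tested. The spread among lines was larger in the control group: its coefficient of variation (CV, SD over mean) was above that of the PWS group in 24 of the 30 genes, with medians of 8.56% and 5.71%, whereas 51.5% of all tested genes with a control mean of at least 1000 had the larger CV in the control lines. The PWS CV ran from 0.616% in Tusc3 to 11.5% in Krtcap2. Every gene of the 30 had at least 388 reads in each library.

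For 3 pairs of paralogues with like roles, the log2 ratio of their normalized counts was compared within each line, which does not depend on the scaling between lines. The ratio of Sec61a1 to Sec61a2 was 5.09, 5.22 and 5.18 in control lines 5-9, 2 and 16 and 4.93, 4.70 and 4.84 in PWS lines 3, 19-1 and 19-4. All PWS lines were below all control lines, with a mean of 5.16 ± 0.07 (SD, n = 3) against 4.82 ± 0.11 and a difference of -0.34, at a two-sided p of 0.1 by exact permutation, the smallest that 3 against 3 lines can give, and an adjusted p of 0.15 over the 3 pairs. Under nonunique none counting the difference was -0.23, with the same p of 0.1. The ratio of Magt1 to Tusc3 was also lower in every PWS line, at 0.05 ± 0.04 against -0.05 ± 0.02 (difference -0.10, exact permutation p = 0.1, adjusted p = 0.15). The ratio of Sec11a to Sec11c overlapped, at -0.78 ± 0.21 in control and -0.75 ± 0.07 in PWS lines (exact permutation p = 0.9).

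**Figure D3:**
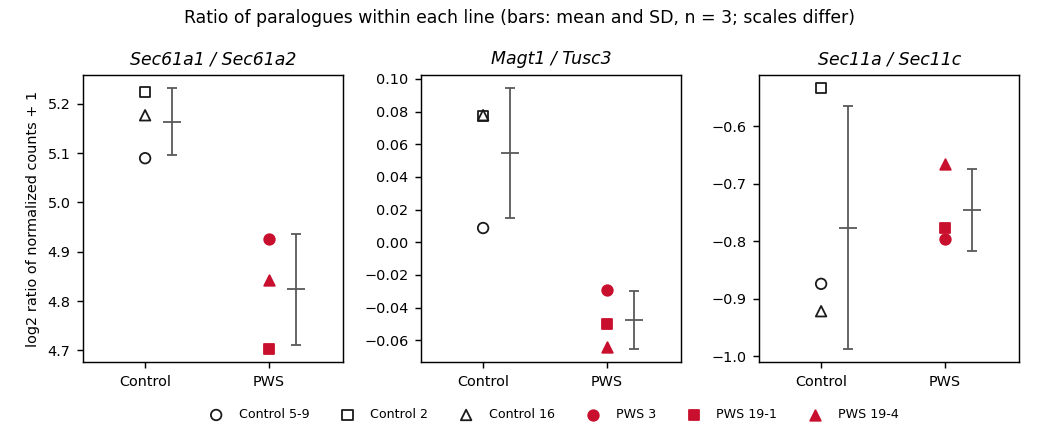
The log2 ratio of normalized counts + 1 of 3 paralogue pairs in each control (open) and PWS (red) line, with the mean and SD of each group of 3 beside the points; vertical scales differ and do not start at 0. The lines of the groups are apart for Sec61a1 over Sec61a2 and for Magt1 over Tusc3, and mixed for Sec11a over Sec11c.

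Neighbouring steps of the same pathway were described from lists of other genes. Of 31 tested genes for targeting and membrane insertion (such as the EMC and GET pathways), 23 were lower on average in the PWS lines (median log2 fold change -0.05), and 0 passed the adjusted threshold by limma, edgeR or DESeq2. Under an unadjusted p of 0.05 by limma, 2 were lower and 1 higher, beside 5.35% and 6.0% of all genes: Wdr83os (-0.23, SE 0.09), the lowest of the list, and Emc3 (-0.20, SE 0.06), a core subunit of the EMC insertase, and Tram2 (0.92, SE 0.25), a relative of Tram1. Tram2 had 50.3, 34.9 and 68.8 normalized counts in the control lines and 88.8, 106 and 90.0 in the PWS lines. It was higher in every PWS line (unadjusted p = 0.00601, adjusted p = 0.283), the opposite direction to Tram1. Without control line 2, 4 genes were lower and 2 higher at this threshold (4.7% and 5.61% of all genes), and without PWS line 3, 3 were lower and 2 higher (5.56% and 6.18%).

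Of 26 genes that build the lipid-linked sugar donor for OST or trim the sugar after transfer, 21 were lower on average in the PWS lines (median log2 fold change -0.05), and 0 passed the adjusted threshold by limma, edgeR or DESeq2. Lower at an unadjusted p under 0.05 were 3 by limma, 1 by edgeR and 2 by DESeq2, beside 5.35%, 5.24% and 5.01% of all genes. In 6 of the 26 every PWS line was below every control line, which was so for 9.01% of all genes. The 3 by limma were Dpm3 (-0.38, SE 0.16) and Dpm2 (-0.17, SE 0.07), subunits of dolichol-phosphate mannose synthase, and Alg2 (-0.27, SE 0.11), a mannosyltransferase. The groups of Dpm3 overlapped, and only 16.1% of its reads were kept by nonunique none counting. Alg2 was -0.14 (unadjusted p = 0.12) without control line 2, which was the highest of the 6 lines. Dpm1, the catalytic subunit of the same synthase, was the highest of the list, at 0.08. With any 1 line left out, 0 to 2 genes of this list were lower at an unadjusted p under 0.05 (3.46% to 5.56% of all genes).

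The ER chaperones had a larger median difference in the same lines than the translocation and glycosylation genes, although the contrast between the gene groups was not tested. The 10 examined, among them Hspa5, Hsp90b1 and Sdf2l1, were chosen by the study on these lines. Neither their direction nor the size of their difference is therefore independent evidence. All 10 were lower on average in the PWS lines, with log2 fold changes from -0.95 (Sdf2l1) to -0.35 (Ppib) and a median of -0.52. By limma 0 passed the adjusted threshold and 10 were lower at an unadjusted p under 0.05 (5.35% of all genes), edgeR gave the same counts (5.24%), and DESeq2 put 8 past the adjusted threshold (1.46%), whereas by DESeq2 it was 0 of the 30 genes above. By line, the chaperone median relative to the control mean was -0.11, -0.07 and 0.18 in control lines 5-9, 2 and 16 and -0.30, -0.61 and -0.63 in PWS lines 3, 19-1 and 19-4. PWS line 3 was the closest to the control lines in both gene groups, and control line 16 was the highest in both, whereas control line 2 was below PWS line 3 in the median of the 30 genes and above it in that of the chaperones.

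**Figure D4:**
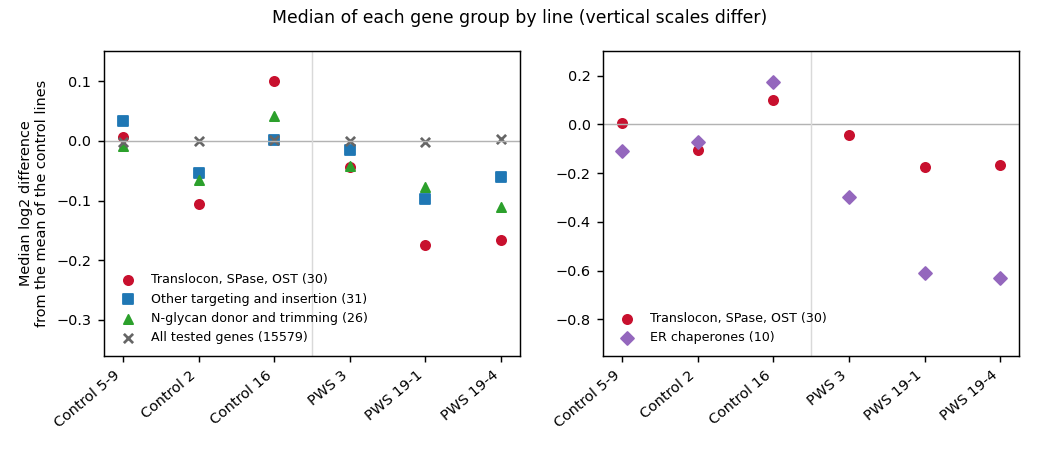
The median log2 difference from the mean of the control lines, by line, for the 30 genes with the other lists and all tested genes (left) and with the 10 ER chaperones (right, on a longer vertical scale). The all-gene medians stay near 0 in every line, the 30 genes range from 0.10 in control line 16 to -0.17 in PWS line 19-1, and the chaperones reach -0.63 in PWS line 19-4.

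Of the 2 transcription factors, Xbp1 had 2589, 3014 and 2905 normalized counts in the control lines and 2794, 2725 and 2499 in the PWS lines. The groups overlapped (log2 fold change -0.08, SE 0.08, unadjusted p = 0.328), and the counts are of the whole gene and do not separate the spliced form of Xbp1 that is made under ER stress. Atf6 had 1406, 1522 and 1455 in the control lines and 1617, 1749 and 1644 in the PWS lines. It was higher in every PWS line, with a log2 fold change of 0.19 (SE 0.07, unadjusted p = 0.0230, adjusted p = 0.369), the opposite direction to the chaperones and to 28 of the 30 genes.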

How the data were processed

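Total RNA of 6 INS-1 lines, depleted of rRNA, was sequenced as 75-base paired-end reads. The submitters' processing notes name FastQC 0.11.5, cutadapt, STAR 2.7.0e, HTSeq 0.11.2, RSEM 1.3.1 and DESeq2 (given as version 3.9). The authors aligned the reads to the rat genome of Ensembl release 98 with transgene sequences added, and deposited 1 table for each way of counting, whose values for a line are a signal: its read counts after division by the DESeq2 size factor. The tables also hold the authors' fold changes and p-values, which were not used. The nonunique all table, in which a read counts at each place it aligns and for each gene it overlaps, was the main one; nonunique none and RSEM were alternatives. In both HTSeq countings, 100% of values were whole multiples of 1 read (tolerance 0.001), so the reads were recovered. No column was without a sample.

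The difference between PWS and control lines was tested two-sided by limma 3.58.1 (R 4.3.3, eBayes with a trend) on values log2-transformed after adding 1. The 15579 genes averaging 5 or more across all 6 lines were tested together and their p-values adjusted by Benjamini-Hochberg. Fold changes are on this scale, and percentages are computed from them. edgeR 4.0.16 and DESeq2 1.42.0 were run on the recovered reads as alternatives. Ratios of paralogues were compared by exact permutation over the lines (scipy 1.17.1). On simulated data for this comparison, limma recovered 73% of genes changed by 1 on the log2 scale and 94% of those changed by 2, with 11 false calls among 15579 genes; smaller changes, such as those of the genes described here, were not simulated.

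The genes and lists were chosen with earlier results of these data known. Named are all genes of the translocon list, the lowest and highest gene of each other list with those whose groups do not overlap at an unadjusted p under 0.05, and Snurf, Xbp1, Atf6 and the chaperones for context. The stretches of sequence shown were chosen after the values were seen.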

Additional observations from a re-analysis of the deposited data

How the results depend on the processing

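The median of the 30 genes kept its direction under all 18 alternatives, and no gene of the 30 passed the adjusted threshold in any, with a lowest adjusted p of 0.103 (DESeq2). The number of the 30 lower at an unadjusted p under 0.05 was 4 by eBayes without trend (4.69% of all genes) and 3 with lines 19-1 and 19-4 averaged (3.63%), and 2 to 18 when 1 line was left out; groups were then apart, in either direction, in 9 to 23 (25.4% to 30.6% of all genes). Of all tested genes, 9 passed the adjusted threshold with a mean of at least 50, 228 by DESeq2, 16 by nonunique none counting and 12 by RSEM, against 40. The number of N-glycan genes lower under 0.05 was 1 by edgeR (5.24% of all genes), 0 by eBayes without trend (4.69%) and 0 with 19-1 and 19-4 averaged (3.63%). It was 0 to 2 with 1 line left out (3.46% to 5.56%). By TMM and RSEM it was also 1, and the share of all genes was not computed for these. With 1 line left out, 2 to 6 targeting and insertion genes were under 0.05 in either direction, of which 1 to 4 were lower (3.46% to 5.56%). The causes were not tested.

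Of 540 values of single genes, 13 changed sign, in 6 genes. Srpra was 0.00034 by TMM, 0.00024 by edgeR, 0.0162 by RSEM and 0.0123 with 19-1 and 19-4 averaged. With 1 line left out, the log2 fold change ranged from -0.0342 to 0.0398 in Srpra, -0.108 to 0.0297 in Srp19, -0.0743 to 0.145 in Srp68, -0.194 to 0.00725 in Sec62, -0.0478 to 0.0227 in Stt3b and -0.118 to 0.00483 in Spcs1, and the difference in the Sec11a to Sec11c ratio from -0.0417 to 0.152.

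The labels number the lines of each group 1 to 3. Deviations of same-numbered lines from their group means correlated at 0.00345, 0.0467 and 0.00513 over 15579 genes. These values show little pairing by number, and not every line correlated best with its own number. With 3 lines per group they cannot exclude that same-numbered lines were handled together. With the replicate number as a block, 5 of the 30 genes had an unadjusted p under 0.05, all lower, beside 5.12% of all genes, and 0 passed the adjusted threshold; of all genes 36 passed it.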
